A study of Mus musculus with 6 samples.

Results

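The 7 genes of the INK4 and CIP/KIP families encode the protein inhibitors of cyclin-dependent kinases (CDKs). Here they were read in GFP+ marrow cells of mice that had received transplanted haematopoietic stem cells (HSCs). The genes were taken by gene symbol: Cdkn1a, Cdkn1b and Cdkn1c of the CIP/KIP family, and Cdkn2a, Cdkn2b, Cdkn2c and Cdkn2d of the INK4 family. All 7 had a row among the 25033 gene symbols of the tables, and all 7 passed the filter on low counts and were tested. The 3 inhibitor libraries came from mice that had received HSCs treated with an inhibitor of miR-31-5p, and the 3 control libraries from mice that had received HSCs treated with a control RNA. Both groups were of the C57BL/6J strain, labelled with an age of 6 months, and in both the sequenced RNA came from GFP+ cells sorted from the bone marrow of the recipients. The labels do not say what GFP marked, so descent of the sorted cells from the transplanted HSCs is not given. Also not given is how long after the transplant cells were taken, or whether each library came from its own animal. P-values therefore describe the spread among libraries, which may be technical.

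CDKs drive the cell cycle once bound to cyclins, and both families restrain them. INK4 proteins bind CDK4 and CDK6 and keep D-type cyclins from activating them. CIP/KIP proteins bind cyclin and CDK complexes more widely, above all those of CDK2, and hold cells in G1 or in quiescence. In blood formation p57, the product of Cdkn1c, and p27, the product of Cdkn1b, are known for keeping HSCs quiescent, and p18, the product of Cdkn2c, for limiting their self-renewal. Cdkn1a encodes p21, the classical target of p53. Cdkn2a encodes 2 unrelated proteins, the CDK inhibitor p16INK4a and the p53 activator p19ARF, from separate first exons.

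The treatment acted on a microRNA, which represses transcripts through matches to its seed, so its sequence is given first, with the seed in capitals (bases 2 to 8; RefSeq, GRCm38.p6, chr4:88910614-88910635, minus strand).
mmu-miR-31-5p: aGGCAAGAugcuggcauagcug
The full match to that seed, TCTTGCC, stood in the longest annotated 3′ UTR (GENCODE release M21) of 0 of the 7 CDK inhibitor genes, against 1621 of 12289 tested genes with such a UTR (13.2%). The shorter match to bases 2 to 7, CTTGCC, stood in 4449 of those genes (36.2%), and among the 7 it was found in Cdkn1a and Cdkn1b, with 2 matches each. Those 4 sites on GRCm38 are shown on the plus strand with the match in capitals, at chr17:29099776-29099805 and chr17:29100141-29100170 for Cdkn1a and at chr6:134922308-134922337 and chr6:134923090-134923119 for Cdkn1b.
Cdkn1a site 1: cctgcctggttcCTTGCCacttcttacctg
Cdkn1a site 2: catatctaggcaCTTGCCccacagctcagt
Cdkn1b site 1: cccaagcaagaaCTTGCCaccaaggcccca
Cdkn1b site 2: ctcatcaccccaCTTGCCtaattagagtaa
The 3′ UTRs searched ran from 264 bases in Cdkn2a to 3439 bases in Cdkn1b, so the room for a match differed widely between the genes. At site 1 of Cdkn1a and site 1 of Cdkn1b the match was followed by A, giving the 7 bases CTTGCCA. The share of tested genes that hold CTTGCCA was not computed. A match is a run of letters and not a measured site of binding. An mRNA library does not measure a mature microRNA, so the extent of inhibition was not analysed here.

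Libraries held 16873188 to 19496200 counts in the inhibitor group and 19866738 to 21245861 counts in the control group, so 3 counts in a library corresponded to 0.141 to 0.178 CPM (counts scaled to the size of the library). Rn45s, the ribosomal RNA precursor, had 1784 to 3145 counts in the inhibitor libraries and 3667 to 61656 counts in the control libraries, with 20039 and 61656 in control libraries 1 and 3, and results were therefore also computed without those 2. That refit sets the 3 inhibitor libraries against control library 2 alone, which is assumed to vary as the inhibitor libraries do, so its p-values rest on the spread of 1 group. The HSC label was checked against 8 marker genes, all detected. Cd34 and Kit, which stem cells share with progenitors, averaged 387.6 and 406.2 CPM in inhibitor libraries, and 362.8 and 401.9 CPM in control libraries. The more stem-cell-restricted Mecom averaged 0.384 CPM in inhibitor libraries and 0.636 CPM in control libraries, from 4 to 15 counts per library. Mecom did not pass the test described below. Procr and Slamf1 averaged 7.55 and 16.9 CPM in inhibitor libraries, and 1.06 and 5.22 CPM in control libraries. Hlf went the other way, at 3.655 CPM in inhibitor libraries and 6.95 CPM in control libraries. Mpo, a marker of myeloid progenitors and young neutrophils, averaged 4315 CPM in inhibitor libraries and 5202 CPM in control libraries, so genes of differentiating cells were present in both groups. In sorted bulk cells, fewer cells of a type and less RNA per cell cannot be told apart.

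The comparison asked which CDK inhibitor transcripts differ in GFP+ marrow cells of mice given HSCs treated with the miR-31-5p inhibitor. Cdkn1a, Cdkn1c, Cdkn2a and Cdkn2b rose 2.31-, 2.27-, 2.62- and 3.55-fold in the inhibitor libraries. Cdkn1b rose by much less, 1.16-fold, and Cdkn2c and Cdkn2d did not pass the test. In all, 5 of the 7 genes were higher at an adjusted p under 0.05 (edgeR quasi-likelihood test, Benjamini-Hochberg adjustment over 12978 tested genes), and 0 were lower. Over all tested genes 40.5% were called, 20.4% higher and 20.1% lower. Rises of at least 2-fold past the same threshold were seen in 4 of the 7, where 5.37% of all tested genes had one. In 5 of the 7 every inhibitor library lay above every control library, a separation found in 25.9% of tested genes. It was found the other way round in 26.5%, and so in either direction in 52.4%, and in 0 of the 7 did every inhibitor library lie below. The median log2 change over the 7 was 1.18, beside -0.01 over all tested genes. Levels below are CPM scaled by TMM, the trimmed mean of M-values, and changes are log2 of inhibitor over control with their SE.

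**Figure D1:**
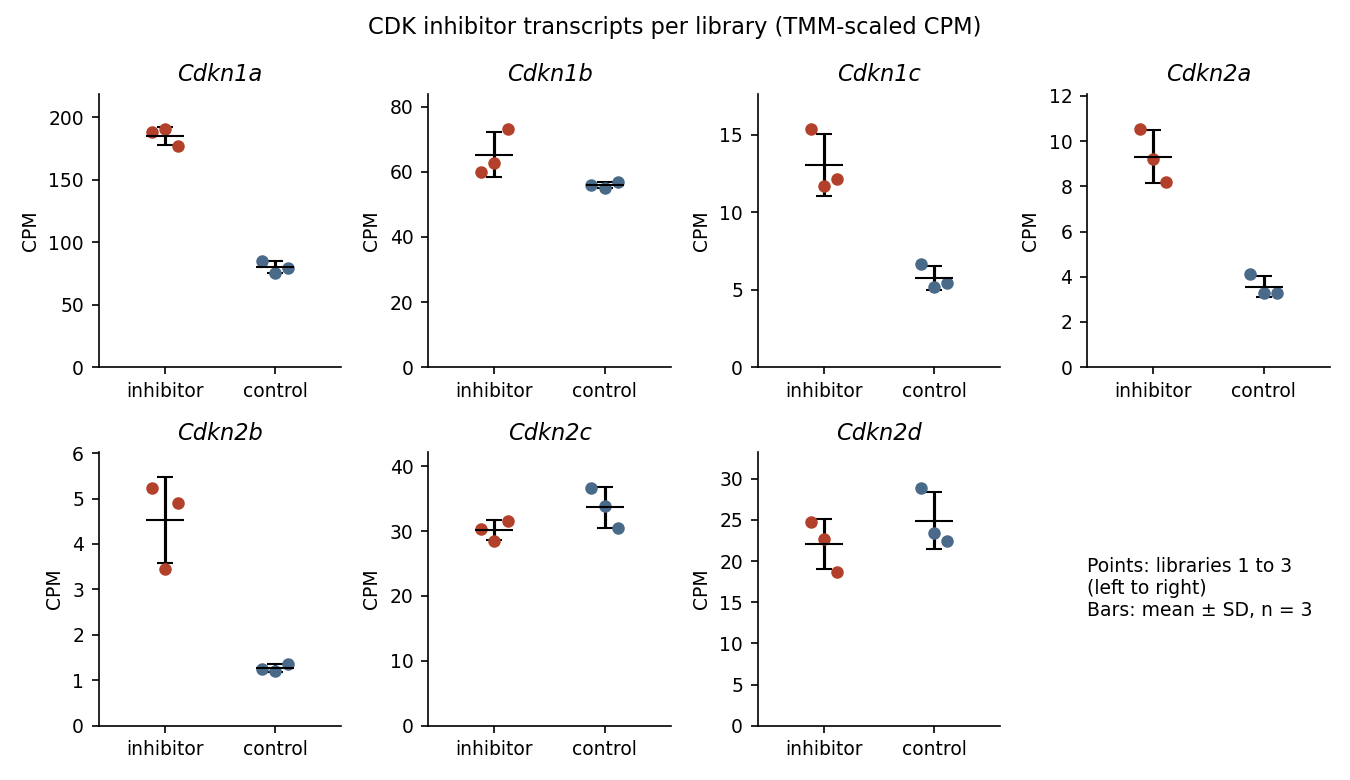
TMM-scaled CPM (linear axes starting at 0, a scale for each gene) of the 7 CDK inhibitor genes in the inhibitor and control libraries; points are libraries 1 to 3 from left to right, and bars are the mean ± SD (n = 3 libraries per group). The 3 inhibitor libraries stand above the 3 control libraries for Cdkn1a, Cdkn1b, Cdkn1c, Cdkn2a and Cdkn2b, whereas the groups overlap for Cdkn2c and Cdkn2d.

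Cdkn1a (GRCm38 chromosome 17, 29090979 to 29100722) had the most counts of the family. Its p21 protein blocks CDK2 complexes after p53 activation and has p53-independent roles in differentiation. It stood at 187.7, 190.3 and 176.5 CPM in inhibitor libraries 1 to 3, against 85.2, 75.6 and 78.9 CPM in control libraries 1 to 3. The groups did not overlap, and the lowest inhibitor library was more than double the highest control library. The change was 1.21 ± 0.06, above that of 96.0% of tested genes (adjusted p = 4.71e-10 by edgeR quasi-likelihood, Benjamini-Hochberg). It stayed between 1.18 and 1.29 under all 16 refits with other settings, the upper value being that without control libraries 1 and 3.

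Cdkn1c (chromosome 7, 143458339 to 143461059) is an imprinted gene read from the maternal copy, and its p57 protein is the CIP/KIP member most tied to HSC quiescence. It had 15.4, 11.7 and 12.1 CPM in inhibitor libraries 1 to 3, against 6.63, 5.198 and 5.45 CPM in control libraries 1 to 3. Library 1 was the highest in both groups, and the groups did not overlap. With 200 to 299 counts per inhibitor library and 104 to 132 per control library, its change of 1.18 ± 0.15 had a wider error than that of Cdkn1a (adjusted p = 1.5e-05 by edgeR quasi-likelihood, Benjamini-Hochberg).

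Cdkn1b (chromosome 6, 134920401 to 134925525) encodes p27, whose amount is set largely by protein degradation. It had 59.9, 62.7 and 73.1 CPM in inhibitor libraries 1 to 3, against 55.9, 55.2 and 57.0 CPM in control libraries 1 to 3. The inhibitor libraries were all higher but also more scattered, at 65.2 ± 6.94 CPM beside 56.0 ± 0.90 CPM in control libraries (mean ± SD, n = 3), and library 3 of the inhibitor group was the farthest from the controls. The change was 0.22 ± 0.08 (adjusted p = 0.0303 by edgeR quasi-likelihood, Benjamini-Hochberg). The call was lost without any 1 of 4 libraries, and without inhibitor library 3 the change was 0.13 (adjusted p = 0.173 by the same edgeR test, the highest of a range of 0.0113 to 0.173 over the 16 refits).

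Cdkn2a and Cdkn2b lie side by side on chromosome 4, at 89274473 to 89294619 and at 89306289 to 89311032. The Cdkn2a row pooled the p16INK4a and p19ARF transcripts, which the counts do not separate. Cdkn2a had 10.5, 9.22 and 8.21 CPM in inhibitor libraries 1 to 3, against 4.12, 3.30 and 3.29 CPM in control libraries 1 to 3. The lowest inhibitor library was about double the highest control library, and the change was 1.39 ± 0.16 (adjusted p = 6.81e-06 by edgeR quasi-likelihood, Benjamini-Hochberg).

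Cdkn2b encodes p15INK4b, an INK4 protein known as a target of TGF-beta signalling, and it showed the largest change of the 7. It was also the gene with the fewest reads, at 102, 59 and 83 counts in inhibitor libraries 1 to 3 and 25, 24 and 29 counts in control libraries 1 to 3. These counts gave 5.24, 3.44 and 4.90 CPM in inhibitor libraries 1 to 3, against 1.255, 1.20 and 1.36 CPM in control libraries 1 to 3. Inhibitor library 2 was the lowest of its group and still far above every control. The change was 1.83 ± 0.24, above that of 98.2% of tested genes (adjusted p = 2.3e-05 by edgeR quasi-likelihood, Benjamini-Hochberg), and it lay between 1.71 and 1.99 over the 16 refits.

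The other INK4 genes gave a different picture. Cdkn2c (chromosome 4, 109660876 to 109666756), which encodes p18INK4c, had 30.4, 28.5 and 31.5 CPM in inhibitor libraries 1 to 3, against 36.7, 33.8 and 30.5 CPM in control libraries 1 to 3. Control library 3 fell among the inhibitor libraries, and the change was -0.16 ± 0.09 (adjusted p = 0.166 by edgeR quasi-likelihood, Benjamini-Hochberg). Cdkn2d (chromosome 9, 21288459 to 21291421), which encodes p19INK4d, had 24.7, 22.6 and 18.7 CPM in inhibitor libraries 1 to 3, against 28.9, 23.4 and 22.5 CPM in control libraries 1 to 3. Its groups overlapped too, with a change of -0.17 ± 0.12 (adjusted p = 0.261 by edgeR quasi-likelihood, Benjamini-Hochberg). Neither passed under any of the 16 refits, where the lowest adjusted p in edgeR, DESeq2 or limma was 0.0897 for Cdkn2c and 0.143 for Cdkn2d, and the values do not show that either gene was unaffected.

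**Figure D2:**
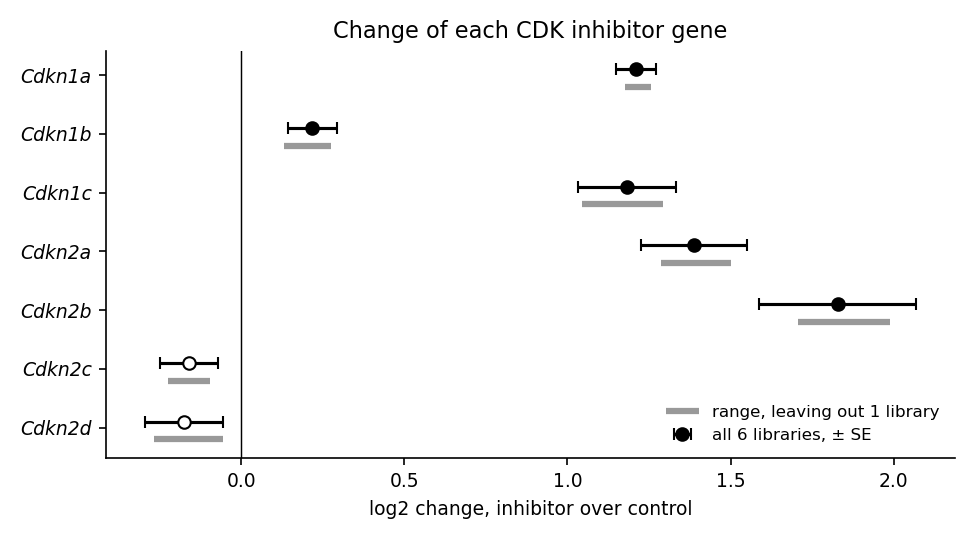
Log2 change of inhibitor over control for each of the 7 genes; circles are the fit on all 6 libraries with its SE, filled where the adjusted p was under 0.05, and grey bars give the range when each library was left out in turn. Cdkn1a, Cdkn1c, Cdkn2a and Cdkn2b lie above 1 with and without each library, Cdkn1b lies at 0.22 with a range of 0.13 to 0.28, and Cdkn2c and Cdkn2d lie just below 0.

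Levels of different genes were compared as deposited RPKM, which divides by transcript length and library total. For Cdkn1b that length was 2405 bases, shorter than the 3′ UTR of 3439 bases searched above. Its level beside the other genes therefore depends on the length used. In inhibitor libraries the order was Cdkn1a at 96.5 ± 3.69 RPKM, Cdkn2c at 27.2 ± 1.39, Cdkn1b at 27.1 ± 2.95, Cdkn2d at 17.3 ± 2.34, Cdkn2a at 10.9 ± 1.33, Cdkn1c at 6.71 ± 1.015 and Cdkn2b at 3.25 ± 0.68 RPKM (mean ± SD, n = 3). In control libraries the order of the 7 was the same, from Cdkn1a at 40.1 ± 2.35 RPKM through Cdkn2c at 29.3 ± 3.42, Cdkn1b at 22.4 ± 0.59, Cdkn2d at 18.9 ± 2.78, Cdkn2a at 4.03 ± 0.55 and Cdkn1c at 2.85 ± 0.37 to Cdkn2b at 0.88 ± 0.02 RPKM. Of neighbours in this order, Cdkn2c and Cdkn1b overlapped in the inhibitor libraries. In the control libraries Cdkn1b and Cdkn2d nearly touched, with a lowest Cdkn1b value of 21.83 and a highest Cdkn2d value of 21.81 RPKM. The library totals behind RPKM exceeded the summed counts by 0.22 to 0.346% in the inhibitor libraries and by 0.492 to 8.68% in the control libraries, which lowers RPKM in control library 3 most. Ratios and shares within a library do not depend on that total.

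Per length, the summed level of the 7 genes was 193.1, 188.4 and 185.4 RPKM in inhibitor libraries 1 to 3, against 127.3, 119.2 and 108.6 RPKM in control libraries 1 to 3. The CIP/KIP genes made up nearly all of that gap, with 130.3 ± 1.26 RPKM in inhibitor libraries and 65.3 ± 2.88 RPKM in control libraries (mean ± SD, n = 3). The INK4 genes summed to 58.7 ± 3.55 RPKM in inhibitor libraries and 53.04 ± 6.52 RPKM in control libraries, and their groups overlapped. Cdkn1a alone took 51.0 ± 1.55% of the pool in inhibitor libraries, against 33.9 ± 0.96% in control libraries. The shares of the abundant genes that did not pass the test were smaller in inhibitor libraries, at 14.4 ± 0.88% for Cdkn2c and 9.15 ± 1.07% for Cdkn2d, against 24.7 ± 1.2% and 15.9 ± 1.11% in control libraries. Shares within one sum depend on each other, so a larger share of Cdkn1a lowers the others.

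**Figure D3:**
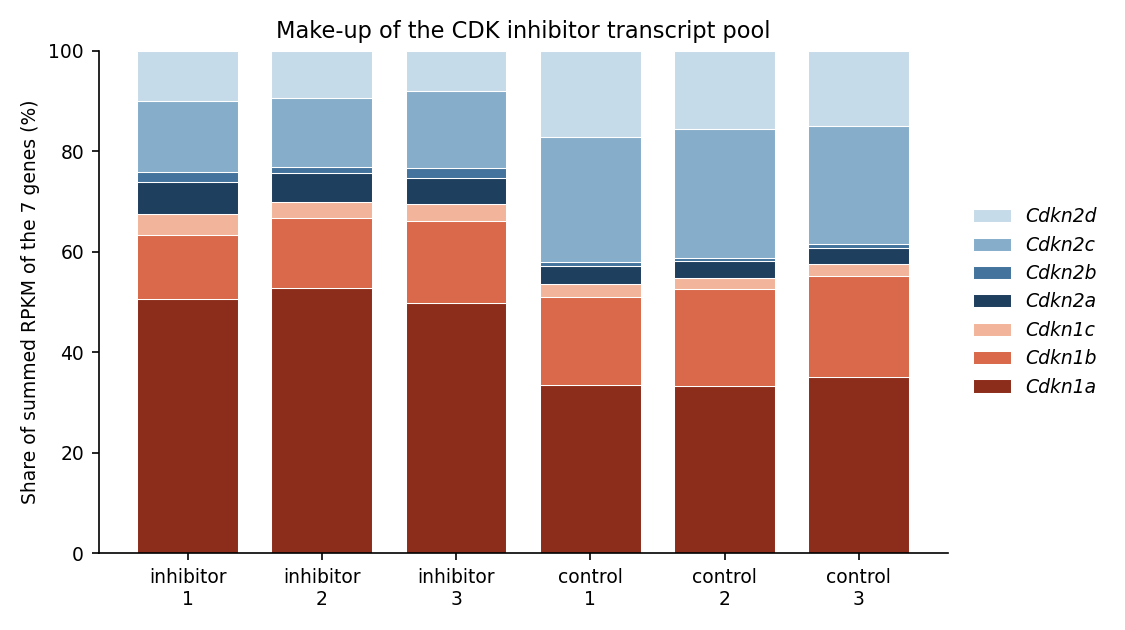
Share of each of the 7 genes in their summed RPKM (percent, stacked to 100), for inhibitor libraries 1 to 3 and control libraries 1 to 3; reds are CIP/KIP genes and blues are INK4 genes. Cdkn1a takes 49.8 to 52.8% of the pool in inhibitor libraries and 33.2 to 35.01% in control libraries, and Cdkn2c takes 13.7 to 15.4% in inhibitor libraries and 23.4 to 25.7% in control libraries.

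The balance between p21 and the other abundant members was also read as a ratio of RPKM within each library. Cdkn1a to Cdkn1b was 3.94, 3.81 and 3.04 in inhibitor libraries 1 to 3, against 1.91, 1.72 and 1.74 in control libraries 1 to 3. Cdkn1a to Cdkn2c was 3.57, 3.86 and 3.24 in inhibitor libraries, against 1.34, 1.29 and 1.498 in control libraries. Cdkn1a to Cdkn2d was 5.04, 5.58 and 6.26 in inhibitor libraries, against 1.96, 2.15 and 2.33 in control libraries. In all 3 ratios the groups stood apart, and an exact two-sided permutation test gave p = 0.1 for each, before and after Benjamini-Hochberg adjustment over the 3, which is the smallest p that 3 libraries against 3 allow.

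Stretches upstream of Cdkn1a, Cdkn2a and Cdkn2b, 3 of the 5 genes that rose, are shown because known regulators of these genes act there. The Cdkn1b window held 1 GC box and is not shown, and that of Cdkn1c was not analysed here. Windows run from 250 bases before to 50 bases after a RefSeq start (GRCm38.p6), on the strand of the gene. They are the upstream start of Cdkn1a (chr17:29090729-29091028, plus strand), the p19ARF start of Cdkn2a (chr4:89294570-89294869, minus strand), its p16INK4a start (chr4:89282143-89282442, minus strand) and the start of Cdkn2b (chr4:89310983-89311282, minus strand). Capitals mark a p53 response element, the GC box GGGCGG or the cyclic AMP response element TGACGTCA.
Cdkn1a upstream start: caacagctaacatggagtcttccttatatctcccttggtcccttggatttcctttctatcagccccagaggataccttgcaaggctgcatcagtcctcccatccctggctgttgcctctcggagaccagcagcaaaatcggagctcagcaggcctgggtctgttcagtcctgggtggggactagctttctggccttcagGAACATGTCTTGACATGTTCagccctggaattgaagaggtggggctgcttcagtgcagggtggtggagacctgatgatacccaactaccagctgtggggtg
Cdkn2a p19ARF start: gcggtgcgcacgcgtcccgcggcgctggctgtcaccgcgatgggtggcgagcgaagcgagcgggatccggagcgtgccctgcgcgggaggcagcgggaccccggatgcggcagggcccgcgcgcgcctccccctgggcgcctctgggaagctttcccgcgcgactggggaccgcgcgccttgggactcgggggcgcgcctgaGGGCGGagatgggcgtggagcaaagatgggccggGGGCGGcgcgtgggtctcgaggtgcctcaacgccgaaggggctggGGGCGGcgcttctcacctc
Cdkn2a p16INK4a start: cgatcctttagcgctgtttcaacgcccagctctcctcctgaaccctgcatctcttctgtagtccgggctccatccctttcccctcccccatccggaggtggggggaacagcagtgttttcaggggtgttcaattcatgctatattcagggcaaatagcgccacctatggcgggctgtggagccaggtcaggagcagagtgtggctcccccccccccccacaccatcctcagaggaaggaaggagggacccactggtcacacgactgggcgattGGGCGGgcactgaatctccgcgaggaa
Cdkn2b start: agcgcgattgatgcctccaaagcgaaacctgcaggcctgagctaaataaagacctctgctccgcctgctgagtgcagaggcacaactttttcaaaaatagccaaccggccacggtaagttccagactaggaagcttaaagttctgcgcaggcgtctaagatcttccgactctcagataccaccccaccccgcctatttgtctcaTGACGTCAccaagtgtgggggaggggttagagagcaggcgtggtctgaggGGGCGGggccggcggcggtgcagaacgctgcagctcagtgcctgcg
The p53 element of Cdkn1a, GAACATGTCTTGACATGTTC, begins 51 bases before that start and was sought with at most 1 mismatch outside the cores of its paired decamers. Such an element was found in 18 of 32851 promoter windows (0.0548%). The downstream Cdkn1a start (chr17:29093519-29093818) held no such element and 2 GC boxes, and the counts do not separate transcripts by start. GC boxes, the sites named for Sp1, were found in 35.7% of windows, in 3 places at the p19ARF start, and once each at the p16INK4a start and at the Cdkn2b start. Cdkn2c and Cdkn2d, which did not pass the test, held GC boxes too. The Cdkn2d window had 5, and the Cdkn2c windows had 4 (chr4:109666707-109667006) and 0 (chr4:109665323-109665622). The cyclic AMP element of Cdkn2b begins 46 bases before its start, and 1.79% of windows held one. An E2F word (TTTCCCGC, TTTCGCGC, TTTGCCGC or TTTGGCGC) began 99 bases before the p19ARF start, and 2.26% of windows held one. Both strands were searched, and these are matches of letters, not measured binding. The TATA box TATAAA (13.6% of windows), the E-box CACGTG (7.15%) and the forkhead word TGTTTAC (3.65%) were searched as well, and the 4 windows shown held no match to these.

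The genes on either side were read to see whether the changes ran along the chromosome. Trp53cor1, a long non-coding RNA also known as lincRNA-p21 and as a p53 target, lies 11852 bases before Cdkn1a. It had 155, 97 and 89 counts in inhibitor libraries 1 to 3, against 60, 48 and 43 counts in control libraries 1 to 3. It rose with Cdkn1a, by 1.35 ± 0.21 (adjusted p = 1.36e-04 by edgeR quasi-likelihood, Benjamini-Hochberg), whereas Rab44, a Rab-family GTPase gene 13405 bases after Cdkn1a, fell by 0.50 ± 0.07 (adjusted p = 4.29e-05 by the same edgeR test). Lockd, a long non-coding RNA that begins 3566 bases after Cdkn1b, had 104, 93 and 78 counts in inhibitor libraries 1 to 3, against 291, 180 and 177 counts in control libraries 1 to 3. Its fall of 1.05 ± 0.20 ran opposite to the small rise of Cdkn1b (adjusted p = 0.00101 by edgeR quasi-likelihood), and control library 1 was the highest.

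Mir31 itself lies on the chromosome of the INK4 pair, 363.8 kb from Cdkn2a. The protein-coding gene between them, Mtap, a methionine salvage enzyme gene named after its values were seen, averaged 45.0 ± 6.30 CPM in inhibitor libraries and 50.2 ± 1.63 CPM in control libraries. Its groups overlapped and it did not pass, with a change of -0.16 ± 0.09 (adjusted p = 0.173 by edgeR quasi-likelihood). Gm12610, a long non-coding RNA whose RefSeq span includes Cdkn2b, had at most 6 counts in any library. Next to Cdkn2c, Faf1 did not pass, with a change of 0.10 ± 0.06 (adjusted p = 0.229 by edgeR quasi-likelihood). Beside Cdkn2d, Kri1 fell by 0.44 ± 0.10 (adjusted p = 0.00186 by edgeR quasi-likelihood), or by 0.26 without control libraries 1 and 3. Ap1m2, on the other side, averaged 0.535 CPM in inhibitor libraries and 1.82 CPM in control libraries, a fall of 1.77 ± 0.39 (adjusted p = 0.00201 by edgeR quasi-likelihood). The strand of counting is not given in the sources used here. The annotation places a gene on the opposite strand over Cdkn1a (AC167363.2) and another over Cdkn1c (Gm44732), so reads of these cannot be told apart from those of the members. No stretch of 50 bases was shared between the annotated transcripts of any pair of the 7 genes.

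The kinase partners of the INK4 proteins were mixed. For this list and those below, the shares over all tested genes were 20.4% higher and 20.1% lower. Of 5 genes for D-type cyclins and their kinases, 2 were higher, 1 was lower and 2 fell short of the threshold (median -0.03). The number higher was 1 without control library 2 or without any 1 of the inhibitor libraries, and the number lower was 2 without control library 1. Cdk4, whose kinase INK4 proteins bind, averaged 282.0 ± 10.7 CPM in inhibitor libraries and 382.1 ± 47.6 CPM in control libraries, and it fell by 0.44 ± 0.08 (adjusted p = 3.61e-04 by edgeR quasi-likelihood, Benjamini-Hochberg). Ccnd3, which encodes cyclin D3, rose to 246.0 ± 7.46 CPM in inhibitor libraries, against 191.7 ± 19.9 CPM in control libraries (0.36 ± 0.07, adjusted p = 5.79e-04 by the same edgeR test). Ccnd2 rose by 0.15 ± 0.05 (adjusted p = 0.0416 by edgeR quasi-likelihood), a call lost in 6 of 16 refits (adjusted p from 0.00998 to 0.156). Cdk6 and Ccnd1 had changes of -0.06 ± 0.06 and -0.03 ± 0.05 and did not pass.

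Cyclins E, A and B with CDK1 and CDK2, the targets of CIP/KIP proteins, moved largely one way. Of 7 tested, 6 were lower, 0 were higher and 1 missed the threshold (median -0.29), where 20.1% of all tested genes were called lower. The number lower was 4 without control library 2, control library 3 or inhibitor library 1. It was 5 without inhibitor library 2 or 3, and 7 without control library 1. Cdk2 averaged 87.3 ± 5.98 CPM in inhibitor libraries and 110.1 ± 4.69 CPM in control libraries, a fall of 0.33 ± 0.06 (adjusted p = 7.52e-04 by edgeR quasi-likelihood, Benjamini-Hochberg). Ccne2, the cyclin E2 gene that partners Cdk2 at the G1/S transition, fell by 0.37 ± 0.08, Cdk1 by 0.29 ± 0.05 and Ccnb1 by 0.22 ± 0.06. Ccnb2 did not pass (-0.12 ± 0.06), and Ccna1 had 0 counts in all libraries.

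Among the pocket proteins, which hold E2F factors inactive until CDKs phosphorylate them, 2 of 3 rose and 0 were lower, or 1 without control library 1. Rb1, the retinoblastoma gene, averaged 150.7 ± 3.35 CPM in inhibitor libraries and 90.0 ± 8.28 CPM in control libraries, a rise of 0.74 ± 0.07 (adjusted p = 3.28e-07 by edgeR quasi-likelihood, Benjamini-Hochberg). Rbl2, which encodes p130 of quiescent cells, rose by 0.27 ± 0.06, and Rbl1, which encodes p107 of cycling cells, had a change of -0.02 ± 0.08 and did not pass. Of 10 E2F and DP genes, 6 were lower, 1 was higher and 3 fell short (median -0.24). The activators E2f1 and E2f2 fell by 0.42 ± 0.08 and 0.59 ± 0.09, and the atypical repressor E2f8 fell by 0.41 ± 0.08. Tfdp2, a dimerisation partner, rose by 0.37 ± 0.07, and E2f4 (-0.12 ± 0.06) did not pass. Of 14 proliferation markers, 11 were lower, 0 were higher and 3 fell short, with a summed level of 4261 to 4336 CPM in inhibitor libraries and 4819 to 5035 CPM in control libraries. The part of cell cycle state in the levels of the CDK inhibitor genes was not tested.

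**Figure D4:**
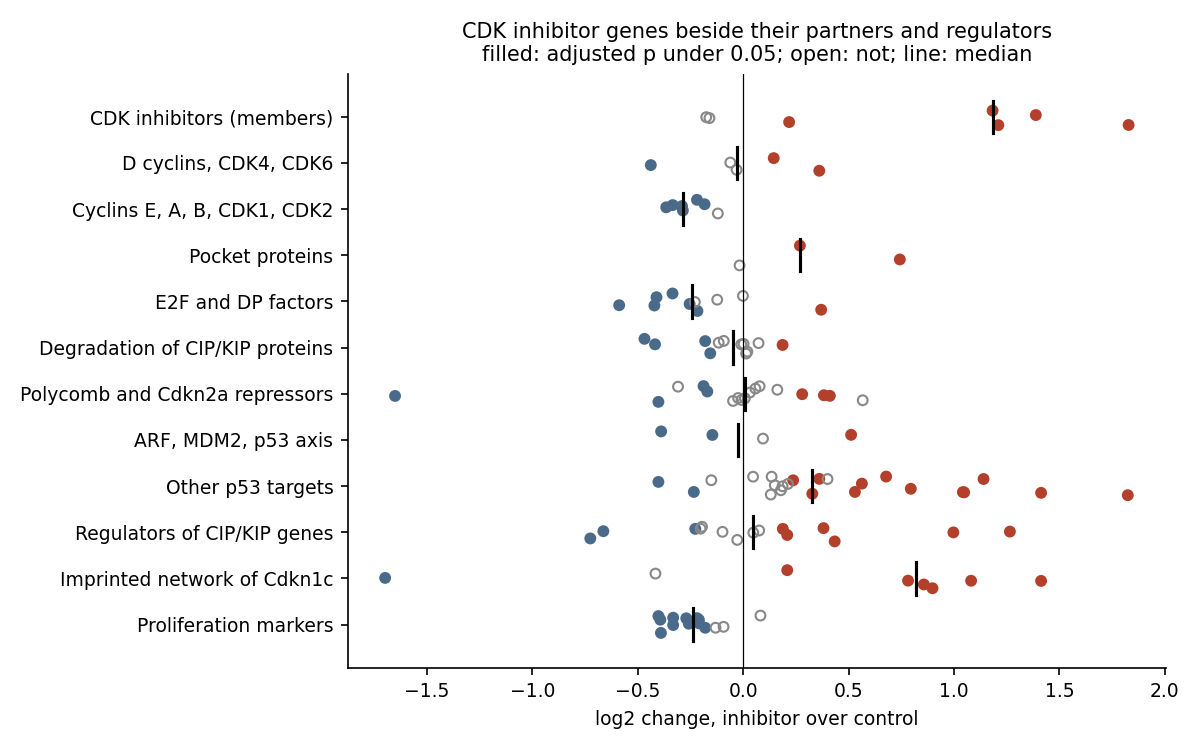
Log2 change of inhibitor over control for each tested gene of the CDK inhibitor families and of 11 lists of partners, regulators and proliferation markers; filled circles passed an adjusted p of 0.05 (red higher, blue lower), open circles did not, and vertical lines are medians. The median of the CDK inhibitor genes is 1.18, those of cyclins E, A and B with their kinases and of E2F and DP factors are -0.29 and -0.24, and that of other p53 targets is 0.33.

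CIP/KIP proteins are removed by ubiquitin ligases, SKP2 with its cofactor CKS1B acting on p27 and p21, and CUL4 with DTL and PCNA acting on p21. While 20.1% of all tested genes were called lower and 20.4% higher, the counts in that machinery were as follows. Of 12 genes, 4 were lower, 1 was higher and 7 fell short (median -0.05). The number lower was 2 without inhibitor library 2 or 3, and the number higher was 0 without inhibitor library 1 or 2. Skp2 averaged 37.7 ± 1.51 CPM in inhibitor libraries and 50.3 ± 1.74 CPM in control libraries, a fall of 0.42 ± 0.07 (adjusted p = 2.59e-04 by edgeR quasi-likelihood, Benjamini-Hochberg). Cks1b fell by 0.47 ± 0.06, to 72.5 ± 1.72 CPM in inhibitor libraries, against 100.3 ± 3.97 CPM in control libraries (adjusted p = 1.56e-05 by the same edgeR test). Pcna fell by 0.18 ± 0.06 and Cul1 rose by 0.19 ± 0.06, and each call was lost in 3 of 16 refits, with adjusted p up to 0.0977 for Pcna and 0.131 for Cul1 in the edgeR refits; without control libraries 1 and 3 the change of Cul1 was 0.12. Protein amounts were not measured.

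Polycomb genes, known for silencing the Cdkn2a and Cdkn2b locus, were read together with Tbx2, a repressor gene outside these complexes. The list did not move one way. Of 17 tested genes, 3 were higher, 4 were lower and 10 fell short (median 0.01). These counts were near the shares over all tested genes, 20.4% higher and 20.1% lower. The number lower was 2 without inhibitor library 1 or 2, and also with DESeq2 or upper quartile factors. Bmi1, the polycomb gene best known for repressing Cdkn2a in HSCs, averaged 103.2 ± 2.40 CPM in inhibitor libraries and 79.1 ± 4.04 CPM in control libraries, so it rose along with Cdkn2a (0.38 ± 0.06, adjusted p = 1.25e-04 by edgeR quasi-likelihood, Benjamini-Hochberg). Ezh1, a histone H3K27 methyltransferase gene, also rose, by 0.41 ± 0.07. Cbx8 fell to 1.96 ± 0.77 CPM in inhibitor libraries, against 6.10 ± 1.04 CPM in control libraries, and Cbx6 fell by 0.40 ± 0.07. Ezh2 (0.03 ± 0.05) and Suz12 (-0.01 ± 0.06) did not pass.

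Of the genes that link p19ARF to p53, Mdm2, both a brake on p53 and one of its targets, averaged 153.3 ± 4.48 CPM in inhibitor libraries and 107.5 ± 6.04 CPM in control libraries (0.51 ± 0.06, adjusted p = 5.46e-06 by edgeR quasi-likelihood, Benjamini-Hochberg). Npm1, which anchors p19ARF in the nucleolus, fell by 0.39 ± 0.06. Trp53 had a change of -0.15 ± 0.06 with an adjusted p = 0.0477 by edgeR quasi-likelihood, a call lost in 12 of 16 refits (adjusted p from 0.0207 to 0.496), and the change was -0.06 without control libraries 1 and 3. Mdm4 did not pass (0.09 ± 0.06).

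Beyond Cdkn1a, 23 other p53 targets were read, of which 12 were higher, 2 were lower and 9 fell short (median 0.33). The number lower was 0 without inhibitor library 2 and 1 without control library 1, inhibitor library 1 or inhibitor library 3. Phlda3, a p53-induced inhibitor of AKT, averaged 24.7 ± 1.43 CPM in inhibitor libraries and 6.96 ± 1.49 CPM in control libraries, a rise of 1.82 ± 0.14 (adjusted p = 4.02e-08 by edgeR quasi-likelihood, Benjamini-Hochberg). Trp53inp1, Zmat3 and Ccng1 rose by 1.41 ± 0.06, 1.14 ± 0.08 and 1.04 ± 0.06. The apoptosis gene Bax (0.21 ± 0.09, adjusted p = 0.0803 by edgeR quasi-likelihood) did not pass with all libraries, and it passed in 4 of the 16 refits, among them that without control library 1, with a change of 0.35 (adjusted p = 6.77e-07 by edgeR, in a range of 6.77e-07 to 0.238 over the 16 refits). Ei24 (0.15 ± 0.06, adjusted p = 0.0514 by edgeR quasi-likelihood) did not pass either, although it did in 5 of the 16 refits.

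Among 15 transcription factors known to act on CIP/KIP or INK4 promoters, 6 were higher, 3 were lower and 6 fell short (median 0.05). Myc, which represses Cdkn1a and Cdkn2b through MIZ1, averaged 114.8 ± 5.83 CPM in inhibitor libraries and 181.8 ± 2.98 CPM in control libraries, a fall of 0.66 ± 0.06 (adjusted p = 2.08e-07 by edgeR quasi-likelihood, Benjamini-Hochberg). Egr1, an immediate-early factor needed for HSC quiescence, rose by 1.27 ± 0.08, to 118.0 ± 10.03 CPM in inhibitor libraries, against 49.1 ± 4.95 CPM in control libraries. The repressor genes Gfi1 and Gfi1b moved apart, Gfi1 falling by 0.72 ± 0.10 and Gfi1b, which is needed for megakaryocytes and red cells, rising by 1.00 ± 0.11. Sp1 (-0.03 ± 0.06) and Sp3 (0.05 ± 0.07), whose products bind GC boxes, did not pass.

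Cdkn1c belongs to a network of imprinted growth genes, of which 8 of 16 others had enough counts to test, and 6 of those were higher, 1 was lower and 1 fell short (median 0.82). The 8 untested genes included H19, Igf2, Meg3 and Dlk1, all at a mean below 1 CPM in both groups, and Zim1 and Rtl1, at 0 in all libraries. Igf2r, the IGF2 clearance receptor, averaged 47.9 ± 1.13 CPM in inhibitor libraries and 17.99 ± 0.54 CPM in control libraries (1.41 ± 0.08, adjusted p = 1.59e-09 by edgeR quasi-likelihood, Benjamini-Hochberg). Grb10 and Slc22a18, of which Slc22a18 lies in the Cdkn1c domain, rose by 0.78 ± 0.12 and 1.08 ± 0.28. Plagl1, an imprinted zinc finger gene, fell to 1.08 ± 0.45 CPM in inhibitor libraries, against 3.57 ± 0.50 CPM in control libraries. Kcnq1ot1, the non-coding RNA that silences that domain on the paternal copy, had 31.8 ± 3.56 CPM in inhibitor libraries and 42.4 ± 11.7 CPM in control libraries and did not pass (adjusted p = 0.0892 by edgeR quasi-likelihood); it passed only with the replicate number as a block (adjusted p = 0.0026 in edgeR, in a range of 0.0026 to 0.285 over the 16 refits) and at a threshold of 0.1.

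The other genes with CDK inhibitory names were mixed, where 20.4% of all tested genes were called higher and 20.1% lower. Of 6, 1 was higher, 2 were lower and 3 fell short (median 0.03). The number lower was 1 without inhibitor library 2 or 3. Ccndbp1, a cyclin D1 binding protein gene, rose by 0.39 ± 0.07. Cdkn3, a phosphatase gene that is itself read in cycling cells, fell by 0.42 ± 0.11, a call lost only with control library 2 as the lone control (adjusted p = 0.119 by edgeR quasi-likelihood, in a range of 0.00524 to 0.119 over the 16 refits). Cdk2ap2 fell by 0.22 ± 0.07, a call lost in 3 of 16 refits, and Cdk2ap1 (-0.04 ± 0.05) and Cdkn2aipnl (0.14 ± 0.06) did not pass.

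Genes whose levels across the 6 libraries lay closest to each member were found among 9432 genes with a mean of at least 10 CPM. Closeness was the root-mean-square (RMS) difference of log2 CPM, centred over the 6 libraries. The difference between the groups enters this measure, so genes with a change of like size lie close. The measure does not show that genes vary together within a group. For Cdkn1a the nearest were Vwf and Itgb3, with RMS differences of 0.0383 and 0.0413. Their changes were 1.16 and 1.23, beside 1.21 for Cdkn1a. Vwf and Itgb3 encode von Willebrand factor and integrin beta 3, both of megakaryocytes. The third was Igtp, an interferon-induced GTPase gene, at 0.0512. For Cdkn2a the nearest were Gng11, Pf4 (platelet factor 4) and Gas2l1, at 0.0564, 0.0783 and 0.0814. Cdkn1c was nearest to Rbpms2, Gas2l1 and Arhgef40, at 0.1004 to 0.106, and Cdkn2b to Prr5l, Proser2 and Fblim1, at 0.117 to 0.147. The genes nearest to these 2 members were less close than those nearest to Cdkn1a and Cdkn2a. Cdkn1b was nearest to Smim10l1, Nae1 and Napg, at 0.0306 to 0.0395, and of those Nae1 passed the test (0.24 ± 0.08) and lost the call in 3 of 16 refits.

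Marker lists of other cell types differed between the groups as well. Of 8 megakaryocyte markers, 8 were higher, with a summed level of 4199 to 4298 CPM in inhibitor libraries and 1804 to 2075 CPM in control libraries, and none was at 0. Their median log2 change was 1.20, beside 2.98 for tested erythroid markers, 1.62 for tested neutrophil markers and 0.40 for dendritic cell markers. Medians of the other cell type lists ran from -1.21 for B cell markers to 0.18 for stromal and endothelial markers. Pf4 averaged 1183 ± 57.5 CPM in inhibitor libraries and 449.8 ± 34.2 CPM in control libraries, and Itgb3 averaged 1010 ± 25.5 CPM in inhibitor libraries and 430.5 ± 19.4 CPM in control libraries. Erythroid markers summed to 18.6 to 20.9 CPM in inhibitor libraries and 5.50 to 7.33 CPM in control libraries, with 4 of 5 tested higher. Dendritic cell markers summed to 1424 to 1436 CPM in inhibitor libraries and 965.3 to 1093 CPM in control libraries, with 4 of 8 higher and 3 lower. The part of these cell types in the levels of the CDK inhibitor genes was not tested.

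Markers of the monocyte line summed to 2855 to 2926 CPM in inhibitor libraries and 4143 to 4225 CPM in control libraries. Of 8, 3 were lower and 2 higher. Most of that gap came from Lyz2, which averaged 1103 CPM in inhibitor libraries and 2243 CPM in control libraries. Ly6c2 and Cx3cr1 were lower too, Cd68 and Irf8 were higher, and Csf1r, Ccr2 and Adgre1 did not pass. Neutrophil markers summed to 4855 to 4969 CPM in inhibitor libraries and 5389 to 5954 CPM in control libraries, with 5 of 7 tested higher and 2 lower. Most of that sum came from Mpo, which averaged 4315 CPM in inhibitor libraries and 5202 CPM in control libraries. Mpo and Elane were lower, whereas S100a8, S100a9, Ngp, Camp and Ltf were higher. Of 7 B cell markers with a row, 5 were too low to test and 2 were lower. The list summed to 10.1 to 10.8 CPM in inhibitor libraries and 17.2 to 19.03 CPM in control libraries. Most of that sum came from Cd79b, at 9.2 CPM in inhibitor libraries and 16.6 CPM in control libraries. T and NK cell markers summed to 17.9 to 20.7 CPM in inhibitor libraries and 26.0 to 29.3 CPM in control libraries, with 2 of 3 tested lower. Mast cell and basophil markers summed to 1248 to 1351 CPM in inhibitor libraries and 1213 to 1253 CPM in control libraries, with 2 of 8 higher and 2 lower. Of the 8 stromal and endothelial markers, 6 were too low to test, and the list summed to 146.6 to 157.5 CPM in inhibitor libraries and 120.9 to 132.3 CPM in control libraries, nearly all from Pecam1, which blood cells also express. The 8 HSC markers summed to 1030 to 1073 CPM in inhibitor libraries and 962.2 to 995.6 CPM in control libraries, with 3 higher, 1 lower and 4 not past the test.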

How the data were processed

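RNA had been extracted with Trizol from sorted marrow cells, and mRNA libraries had been made with a VAHTS kit, per the labels' protocols. The deposited files give whole read counts for each gene symbol, 1 file per library and not normalised, per the file headers. The authors also deposited RPKM values, which scale counts by a maximum transcript length and a library total, per the file headers. The submitters' processing notes name mm10 and bcl2fastq 2.20. Aligner, counter and strand are not given in the labels or headers.

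Counts were filtered with filterByExpr (minimum count 10, minimum total 15), scaled by TMM (factors 0.985 to 1.008) and fitted in R 4.3.3 by robust quasi-likelihood (edgeR 4.0.16), with p-values adjusted after Benjamini and Hochberg over 12978 genes and a threshold of 0.05. The spread within a group was above counting noise (chi-square over degrees of freedom 3.04 to 4.24 for inhibitor pairs and 7.55 to 16.78 for control pairs), and each library was used as 1 replicate. RPKM served levels, shares and ratios between genes, which were compared by exact permutation. Sequences were searched with Python 3.11.15. Floors of 3 counts cover counting error only.

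The members and gene lists were chosen with earlier results of these data known. Named genes were the 7 members, in each list up to 4 past the threshold with the smallest p and up to 2 not past it with the highest mean, the 3 genes most alike to each member past the threshold, and annotated neighbours; cell markers and Mtap came besides. Alternatives were RLE and upper quartile scaling, no filter and a stricter one (1 CPM in all libraries of a group), DESeq2 1.42.0, limma-voom (limma 3.58.1), a block for the replicate number, omission of each library or of control libraries 1 and 3 (which leaves 1 control, with the spread taken from the inhibitor libraries), thinning to the smallest total, omission of Rn45s and the 50 most abundant genes, and a threshold of 0.1.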

Additional observations from a re-analysis of the deposited data

How the results depend on the processing

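The calls of Cdkn1a, Cdkn1c, Cdkn2a and Cdkn2b held under all 16 refits, of which 1 had control library 2 as its lone control, and those of Cdkn2c and Cdkn2d stayed short of the threshold. Cdkn1b lost its call without control library 2 (0.212), control library 3 (0.234), inhibitor library 2 (0.245) and inhibitor library 3 (0.133), and its change ran from 0.133 to 0.277 with 1 library left out; the number of members called was then 4, against 5 otherwise. Genes called over the whole table ranged from 2063 to 3130 higher and from 1877 to 3235 lower. Partner and regulator genes called ranged from 28 to 39 higher (35 with the settings of the report) and from 21 to 35 lower (31). The share of Cdkn1a was 16.3 to 17.8 percentage points higher in inhibitor libraries with each choice tried.

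Counts of single lists stayed within 1.5 times in 362 of their recomputed values and moved further in 46. Named genes other than the 7 members lost a call in 31 recomputed values, gained one in 28 and changed sign in 25. Some genes that did not pass changed sign around 0. E2f6 (-0.001) was at 0.005 with RLE factors, the stricter filter and DESeq2, 0.015 with upper quartile factors, 0.008 when thinned and 0.069 without control libraries 1 and 3. Suz12 was at 0.008 with upper quartile factors and 0.001 when thinned. Without control libraries 1 and 3, Skp1a was at -0.06, Sp3 at -0.079, Cdk2ap1 at 0.004 and 2810454H06Rik at 0.094. With 1 library left out, changes ranged from -0.052 to 0.002 for Ccnd1, -0.033 to 0.046 for E2f6, -0.13 to 0.068 for Rbl1, -0.035 to 0.056 for Skp1a, -0.076 to 0.008 for Sp1, -0.04 to 0.117 for Sp3 and -0.075 to 0.034 for Suz12. The cause of these shifts was not tested.

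No label says that a replicate number pairs libraries. Deviations of same-numbered libraries correlated at 0.058, 0.008 and 0.037, and others at -0.045 to 0.016, below the 0.1 set for pairing. Each library but control library 2 correlated best with its own number, a hint from the data and not from the design. With the replicate number as a block, 2831 genes were higher and 2842 lower (2646 and 2613 without it), the same number of members, 5, passed, and the ratios of Cdkn1a kept their values with p = 0.25, the smallest that exact sign flips of 3 pairs can give. Of the 7 members Cdkn2b had the fewest counts, 24 to 29 in each control library, and the largest SE.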
